A study of Mus musculus with 14 samples.

Results

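The 9 genes described here encode proteins of the renin-angiotensin system, and they were chosen by symbol: Ren1, Agt, Ace, Agtr1a, Atp6ap2, Enpep, Lnpep, Mme and Mas1. Each was matched to 1 of the 56980 gene identifiers in the deposited counts, and all 9 were among the 22339 genes with a total above 10 counts. RNA was sequenced from 1 whole kidney of each of 14 females of the outbred CD-1 mouse stock, killed at 18 weeks of age. The term non-diabetic (T-ND, n = 4) and term diabetic (T-D, n = 4) mice were born vaginally and stayed with their dams, and the preterm non-diabetic (PT-ND, n = 3) and preterm diabetic (PT-D, n = 3) mice were delivered by Caesarean section a day early and raised by foster mothers that had been given acepromazine, a sedative. Mice of the T-D and PT-D groups were given low-dose streptozotocin, a toxin of the insulin-producing β cells, as young adults, and some PT-D mice but no T-D mice received a further course. No mouse carried an introduced allele, and all groups were injected with cationic ferritin, an imaging label, before the kidneys were taken. Preterm birth therefore stands for the earlier delivery, the surgery, the fostering and the sedative in every comparison, and these cannot be told apart. In PT-D against T-D and in the interaction, the further streptozotocin course also cannot be told apart from preterm birth. The labels do not say which of the sequenced mice received it.

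Renin, the protease encoded by Ren1, is released by juxtaglomerular cells of the afferent arteriole and cuts angiotensinogen, the product of Agt, to angiotensin I. Angiotensin-converting enzyme (Ace) makes angiotensin II from it, which acts on the type 1 receptor encoded by Agtr1a to constrict vessels and retain salt, and which also restrains renin release. Other peptidases shorten these peptides: aminopeptidase A (Enpep) and the insulin-regulated aminopeptidase (Lnpep) take residues from the amino end, neprilysin (Mme) forms angiotensin 1-7, and Mas1 is the receptor that angiotensin 1-7 acts on. Atp6ap2 encodes the prorenin receptor, which is also an accessory subunit of the proton pump of lysosomes. In the kidney the brush border of the proximal tubule carries Ace, Mme and Enpep, podocytes also carry Enpep, and proximal tubule cells make Agt.

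All positions are of mouse genome build GRCm39. Ren1 lies on the plus strand at chr1:133278248-133288063, Ace on the plus strand at chr11:105858469-105880790, Agtr1a on the plus strand at chr13:30518942-30566850, Mme on the plus strand at chr3:63148889-63293451 and Atp6ap2 on the plus strand at chrX:12453960-12495037. On the minus strand lie Agt at chr8:125279301-125296716, Enpep at chr3:129062824-129126369, Lnpep at chr17:17741672-17845312 and Mas1 at chr17:13054861-13087035. Reads were counted over exons without regard to strand, and reads on exons of more than 1 gene were left uncounted. Exons of Agt share 2450 bases with those of Cog2 on the other strand, so the Agt counts leave out the reads of that stretch. Exons of Ren1, Agtr1a, Mme, Enpep and Mas1 shared no base with another annotated gene. Some mouse stocks carry an additional renin gene nearly identical to Ren1, which the annotation used here does not list, so reads of such a copy could not be told apart from those of Ren1.

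RefSeq lists a transcription start for 8 of the 9 genes in the table of windows used here. The 250 bases before the start are shown for the 3 genes that were higher in PT-D than in PT-ND kidneys (Ren1, Enpep and Lnpep) and for Ace, whose level varied most among the abundant members. The windows lie at chr1:133278162-133278411 (plus strand) for Ren1, chr3:129126399-129126648 (minus strand) for Enpep, chr17:17844752-17845001 (minus strand) for Lnpep and chr11:105858524-105858773 (plus strand) for Ace, and they are written 5′ to 3′ along the gene, each ending at the base before the start. Capitals mark matches to 6 motifs searched on both strands. These were the TATA box, searched as TATAAA, the upstream promoter element known as the box CCAAT, the GC box of the Sp1 family, searched as GGGCGG, the core of the cyclic AMP response element, for which the letters TGACG were searched, part of the site of the tubular and hepatic factor HNF1, given by the letters GTTAAT, and the element bound by Hox and Pbx proteins in the renin promoter, written TAATAAAT.
Ren1: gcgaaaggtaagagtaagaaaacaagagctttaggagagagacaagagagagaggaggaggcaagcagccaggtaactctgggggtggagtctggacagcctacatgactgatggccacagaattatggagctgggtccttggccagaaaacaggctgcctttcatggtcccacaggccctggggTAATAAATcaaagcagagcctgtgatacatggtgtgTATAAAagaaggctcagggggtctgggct
Enpep: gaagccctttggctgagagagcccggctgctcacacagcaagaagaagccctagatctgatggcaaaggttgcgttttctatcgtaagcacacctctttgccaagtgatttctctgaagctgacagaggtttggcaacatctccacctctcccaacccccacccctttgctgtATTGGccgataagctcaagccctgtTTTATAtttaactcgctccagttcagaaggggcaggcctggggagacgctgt
Lnpep: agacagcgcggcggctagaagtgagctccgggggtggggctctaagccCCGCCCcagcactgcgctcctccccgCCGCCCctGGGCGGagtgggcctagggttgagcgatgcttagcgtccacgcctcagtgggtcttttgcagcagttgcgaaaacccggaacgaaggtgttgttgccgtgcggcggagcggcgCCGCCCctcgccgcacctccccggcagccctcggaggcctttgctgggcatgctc
Ace: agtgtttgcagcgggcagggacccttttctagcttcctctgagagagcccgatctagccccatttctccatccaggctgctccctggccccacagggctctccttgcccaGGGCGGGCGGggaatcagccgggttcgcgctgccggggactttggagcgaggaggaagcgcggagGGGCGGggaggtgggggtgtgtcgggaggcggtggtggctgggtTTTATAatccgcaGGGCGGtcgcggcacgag
The Ren1 window held TATAAA from 29 to 24 bases and TAATAAAT from 65 to 58 bases upstream of the start. Of the 32536 mouse windows of this length, 12.3% held TATAAA and 1.27% held TAATAAAT. In the Enpep window TATAAA was found on the opposite strand from 52 to 47 bases upstream, and CCAAT, which 33.8% of windows hold, on the opposite strand from 77 to 73 bases upstream. GC boxes, present in 32.97% of windows, were found 4 times in the Lnpep window and 4 times in the Ace window, of which 2 overlapped each other in Ace. The Ace window also held TATAAA on the opposite strand, from 31 to 26 bases upstream. RefSeq lists another start of Ace, with a window at chr11:105865765-105866014 that is not shown. TGACG (17.9% of windows) and GTTAAT (6.47%) were found in none of these 4 windows, and no motif was shared by all of Ren1, Enpep and Lnpep.

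Compared per length of transcript, Ren1 was the most abundant member, with a mean of 217.5 TPM, a level scaled by transcript length and library depth, over the 14 libraries (SD 91.7, range 95.8 to 421.2). Ace followed at 98.4 TPM (SD 49.6, range 11.4 to 175.0) and Atp6ap2 at 90.7 TPM (SD 14.8, range 58.3 to 113.0). Ren1 exceeded Ace in 11 of 14 libraries and Ace exceeded Atp6ap2 in 8 of 14, so the order of Ace and Atp6ap2 was not separated by the spread between libraries, and it turned round when the longest transcript served as the length. Mme averaged 60.0 TPM (SD 18.9), Enpep 44.4 TPM (SD 16.3), Agt 30.4 TPM (SD 7.83) and Agtr1a 28.8 TPM (SD 7.38). Mme exceeded Enpep in 10 of 14 libraries, Enpep exceeded Agt in 9 and Agt exceeded Agtr1a in 9, and the order of Agt and Agtr1a also depended on the choice of length. Exon bases shared with another gene stayed in the length although their reads were left out. Levels of Agt (2450 bases shared with Cog2) and Ace (952 shared with Gm11651) may therefore be understated in this order. Lnpep stood at 13.2 TPM (SD 4.17), below Agtr1a in all 14 libraries. Mas1, the receptor of angiotensin 1-7, was close to the limit of detection at 0.233 TPM (SD 0.133), with 3 to 41 counts in a library.

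**Figure D1:**
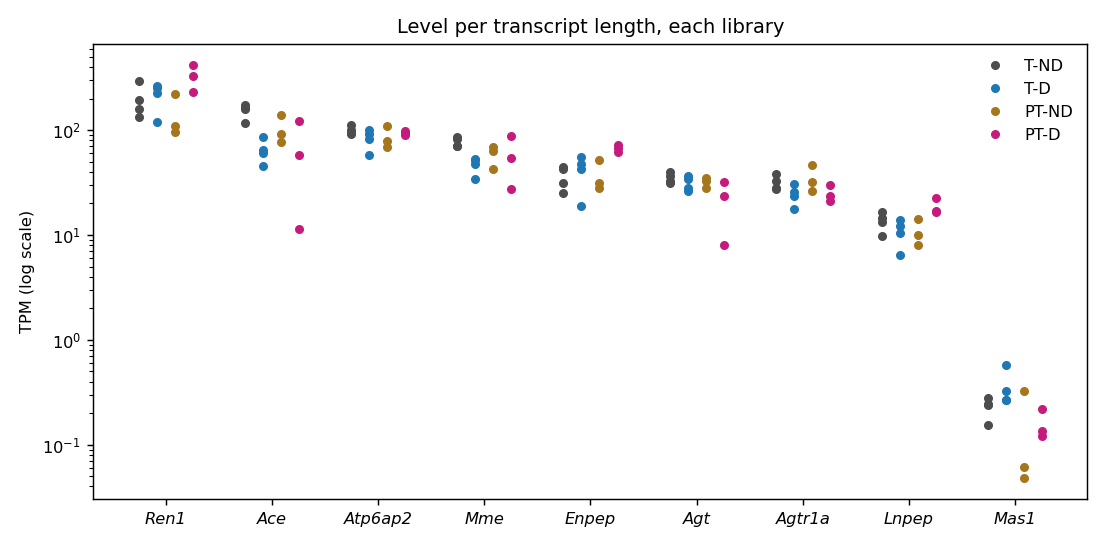
Level of each member per transcript length in each of the 14 libraries, in TPM on a log axis, with 1 point per library coloured by group and genes in the order of their mean. Ren1 lies highest with a mean of 217.5 TPM and Mas1 lowest with 0.233 TPM, and the points of Ace spread from 11.4 to 175.0 TPM.

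Libraries held 16697246 to 28673176 counts on genes, with a median of 18765582, and each member apart from Mas1 rested on at least 443 counts in every library. The labels name separate libraries and the kidneys came from separate mice. According to the paper, term non-diabetic controls were litter mates of treated mice. The labels give no litter, so kidneys of the same litter could not be taken into account. In 5 libraries (the first of each group except PT-ND, and also the second of T-ND and of PT-ND) the library name carries the suffix a, whose meaning the labels do not give. PT-D replicate 1 and T-D replicate 4 were the libraries least like the others, with median correlations over genes of 0.922 and 0.921. The sum of 9 markers of the proximal tubule lay between 158489 and 266945 normalized counts in PT-D kidneys and between 273719 and 560141 in the other groups, and was lowest in PT-D replicate 1. Marker counts were added without scaling, so abundant genes weigh most in each sum. In the proximal tubule list these were Kap (2722759 counts over all libraries) and Slc34a1 (1149280). Sums of 8 mural cell markers (3349 to 4515 in PT-D, 1443 to 2599 elsewhere), 5 podocyte markers (10038 to 13305 in PT-D, 3025 to 9615 elsewhere) and 5 endothelial markers (6011 to 6964 in PT-D, 2886 to 5600 elsewhere) were higher in PT-D than in any other library. All markers of these 4 lists passed the filter on low counts. In whole kidney RNA, fewer cells of a type and less RNA per cell cannot be told apart. Of 5 adrenal markers, Cyp11b1 and Cyp11b2 were at 0 in all 14 libraries. Star, Hsd3b1 and Cyp11a1 held 873, 270 and 13 counts over all libraries. Sums of 4 adipose markers ranged from 3.6 normalized counts in PT-D replicate 1 to 4969 in PT-ND replicate 3. They varied widely within each group, with 4825 in PT-D replicate 2. The part of adjoining fat in the member values was not tested.

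Among preterm mice, kidneys of diabetic animals held more Ren1, Enpep and Lnpep mRNA than those of non-diabetic animals, and no member was called lower. The 3 called genes stand beside a background of 12.9% of all genes tested that passed an adjusted p of 0.05 in this comparison. Groups did not overlap for 4 members (Ren1, Enpep, Lnpep and Agtr1a), where 34.4% of all genes showed no overlap. The median log2 fold change of the 9 members was −0.13, beside 0.05 over all genes tested, with 3 members above 0 and 6 below. Without PT-D replicate 1 the calls were Enpep and Lnpep, without PT-D replicate 2 they were Ren1 and Agtr1a, and without PT-D replicate 3 or PT-ND replicate 2 or 3 there was none.

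Ren1 was measured at 4421, 2339 and 2911 normalized counts in PT-D replicates 1 to 3 and at 2217, 1086 and 1306 in PT-ND replicates 1 to 3. All 3 diabetic kidneys thus lay above all 3 non-diabetic ones, although the lowest PT-D and the highest PT-ND kidney lay close together. The group means were 3224 (SD 1075) and 1536 (SD 600), and the log2 fold change was 1.07 ± 0.29 (SE, n = 3 against 3, edgeR adjusted p = 0.0344). In the term groups the kidneys held 1706, 1446, 2705 and 1863 normalized counts (T-ND) and 2810, 2330, 3000 and 1682 (T-D). Those ranges overlapped with each other and with both preterm groups, and the mean of PT-ND was the lowest of the 4 groups. Without PT-D replicate 1, which had the highest Ren1 count, the log2 fold change between the preterm groups was 0.77 (adjusted p = 0.0786), and among libraries without the suffix a it was 0.57 (adjusted p = 0.220). Markers of mural cells, the lineage of the renin cells, also summed to more in PT-D than in PT-ND kidneys (3349 to 4515 against 1926 to 2480 normalized counts), and their part in the Ren1 difference was not tested.

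Enpep was the most even member in PT-D kidneys, at 3028, 3215 and 3031 normalized counts (mean 3091, SD 107). PT-ND kidneys held 2444, 1482 and 1750, T-ND kidneys 1567, 1287, 1931 and 1905, and T-D kidneys 2153, 2733, 2673 and 1251. The 3 PT-D values lay above all 11 others. Against PT-ND the log2 fold change was 0.71 ± 0.19 (SE, adjusted p = 0.0318) and against T-ND it was 0.88 ± 0.15 (SE, adjusted p = 0.0279). Podocyte markers summed to more in PT-D than in all other kidneys, and T-D replicate 4, the lowest in Enpep, was also lowest in the podocyte sum at 3025. The part of the podocyte share in the Enpep difference was not tested.

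Lnpep was measured at 1481, 1455 and 1701 normalized counts in PT-D kidneys, and at 1210, 958 and 819 in PT-ND kidneys. T-ND kidneys held 1213, 906, 1298 and 1185 and T-D kidneys 1283, 1089, 1056 and 774, so that the PT-D kidneys again lay above all others. The log2 fold change against PT-ND was 0.63 ± 0.17 (SE, adjusted p = 0.0335). Genes with transcripts as long as that of Lnpep had higher counts in PT-D kidneys in general, and with a correction for transcript length the difference of Lnpep was 0.23 ± 0.13 (SE, adjusted p = 0.298).

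The type 1 angiotensin receptor Agtr1a went the other way without passing the threshold. PT-D kidneys held 621, 838 and 585 normalized counts and PT-ND kidneys 1307, 1008 and 863, so the groups did not overlap, with PT-D replicate 2 close to the lowest PT-ND kidney. The log2 fold change was −0.64 ± 0.20 (SE, adjusted p = 0.0560), and DESeq2 called it (adjusted p = 0.0165). Agt, the precursor of all angiotensins, was measured at 417, 1192 and 1420 in PT-D kidneys and at 1411, 1985 and 1941 in PT-ND kidneys, with a log2 fold change of −0.82 ± 0.35 (SE, adjusted p = 0.150). Only PT-D replicate 1 was far below the PT-ND kidneys in Agt, and without it the log2 fold change was −0.45.

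**Figure D2:**
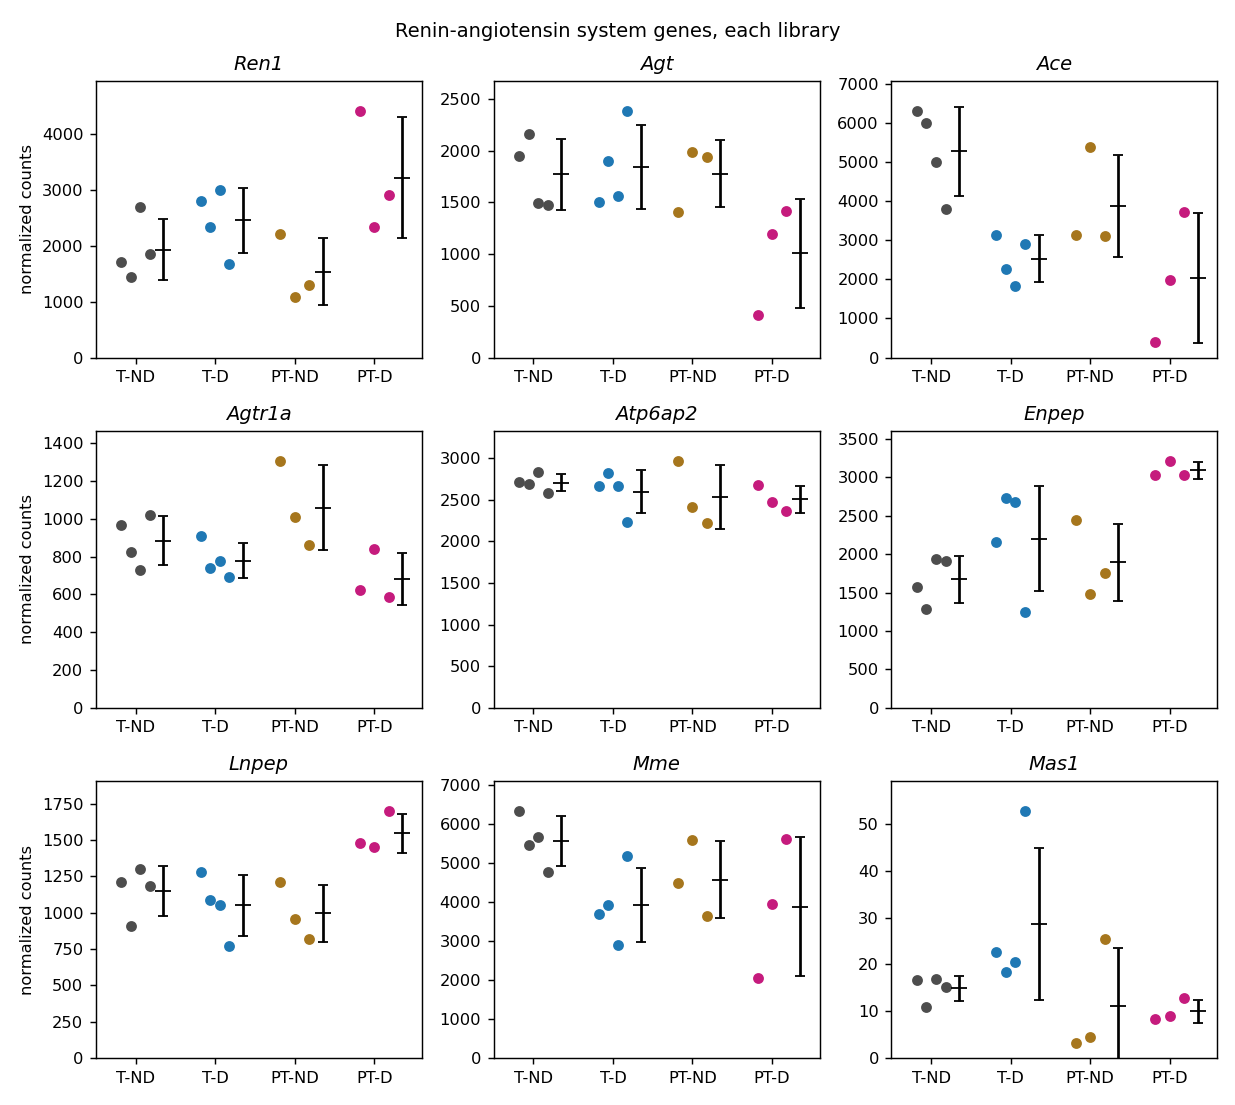
Normalized counts of the 9 members in each library, with 1 point per mouse in replicate order and the mean with SD beside each group; the axes start at 0 and differ between genes, and the SD of Mas1 in PT-ND runs below 0 and is not drawn there. The PT-D points of Enpep (3028 to 3215) and Lnpep (1455 to 1701) lie above all other points, and PT-D replicate 1 (leftmost) lies lowest in Ace at 404 and in Agt at 417.

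PT-D against T-ND joins both exposures. Enpep was the 1 member called, where 2.76% of all genes tested were called. Groups did not overlap for Enpep, Lnpep, Ace and Agt, 4 of 9 members, beside 23.2% of all genes. The members' median log2 fold change was −0.38, beside 0.03 over all genes, and 6 members had an unadjusted p under 0.05, as did 24.3% of all genes. Ren1 had a log2 fold change of 0.74 ± 0.25 (SE, adjusted p = 0.120) and Lnpep of 0.42 ± 0.14 (SE, adjusted p = 0.116), and without PT-D replicate 1 the value of Ren1 was 0.43. Among the 7 libraries the Enpep call was lost without T-ND replicate 1 or 4 or any 1 of the PT-D kidneys, with log2 fold changes that stayed between 0.85 and 0.95 in those fits.

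Ace ranged more widely than any other abundant member. It was measured at 6307, 6002, 4991 and 3789 normalized counts in T-ND kidneys and at 404, 1986 and 3707 in PT-D kidneys. The highest PT-D kidney lay just under the lowest T-ND kidney, and the lowest held less than any other library. The log2 fold change of Ace was −1.39 ± 0.55 (SE, 95% interval −2.63 to −0.15, adjusted p = 0.165), and it was −0.90 without PT-D replicate 1. Agt showed a log2 fold change of −0.82 ± 0.35 (SE, adjusted p = 0.186) in the same comparison, Mme of −0.53 ± 0.28 (SE, adjusted p = 0.268) and Agtr1a of −0.38 ± 0.17 (SE, adjusted p = 0.199). Without PT-D replicate 1 the value of Agt was −0.45 and that of Mme −0.23, and without PT-D replicate 3 that of Ace was −2.15 and that of Mme −0.90. Ace, Mme and Agt are genes of the proximal tubule, whose summed markers were lowest in PT-D replicate 1, and the part of that sum in these differences was not tested.

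No member was called between PT-D and T-D kidneys, where 0.193% of all genes were, and 3 members had an unadjusted p under 0.05, as did 22.3% of all genes. Groups did not overlap for Agt, Enpep, Lnpep and Mas1 (4 of 9 members, 23% of all genes). The largest difference was that of Mas1, with a log2 fold change of −1.50 ± 0.53 (SE, adjusted p = 0.135), which DESeq2 called (adjusted p = 0.0481). Mas1 rested on 9 to 16 counts in PT-D libraries and 15 to 41 in T-D libraries, and without T-D replicate 4 the log2 fold change was −1.03. Agt was 1.84-fold lower in PT-D than in T-D (log2 fold change −0.88 ± 0.33, SE, adjusted p = 0.157) and Lnpep 1.47-fold higher (log2 fold change 0.55 ± 0.18, SE, adjusted p = 0.118). Ren1 differed by 0.39 ± 0.25 (SE, log2, adjusted p = 0.382) and Enpep by 0.48 ± 0.24 (SE, log2, adjusted p = 0.253). Without PT-D replicate 1 the log2 fold change of Agt was −0.51 and that of Ren1 0.0773, and without T-D replicate 4 that of Ren1 was 0.25 and that of Enpep 0.29.

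Among term mice, the clearest difference between diabetic and non-diabetic kidneys was that of Ace. The T-D kidneys held 3138, 2251, 1824 and 2895 normalized counts of Ace, all below the 4 T-ND kidneys, with group means of 2527 (SD 600) and 5272 (SD 1137). The log2 fold change was −1.08 ± 0.21 (SE, 95% interval −1.54 to −0.62). The unadjusted p of edgeR was 0.000261, and its adjusted p of 0.0991 missed the threshold in a comparison with 0.0673% of genes called. DESeq2 called Ace here (adjusted p = 0.00108), and edgeR did so without T-ND replicate 3 (adjusted p = 0.0400) and with no filter on low counts (adjusted p = 0.0223).

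Mme, the other large peptidase gene of the brush border, was measured at 6337, 5452, 5674 and 4782 normalized counts in T-ND kidneys and at 3689, 3919, 2888 and 5185 in T-D kidneys. Only T-D replicate 4 overlapped the T-ND range, and the log2 fold change was −0.52 ± 0.18 (SE, adjusted p = 0.314). Proximal tubule markers summed to 273719 and 292600 in T-D replicates 2 and 3, the libraries with the least Ace in that group, and to 558723 in T-D replicate 4, where Ace was 2895. The part of that sum in the Ace and Mme differences was not tested. No member was called, 2 had an unadjusted p under 0.05 (11.8% of all genes did), and groups did not overlap for Ace and Mas1 (2 of 9 members, 6.66% of all genes).

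**Figure D3:**
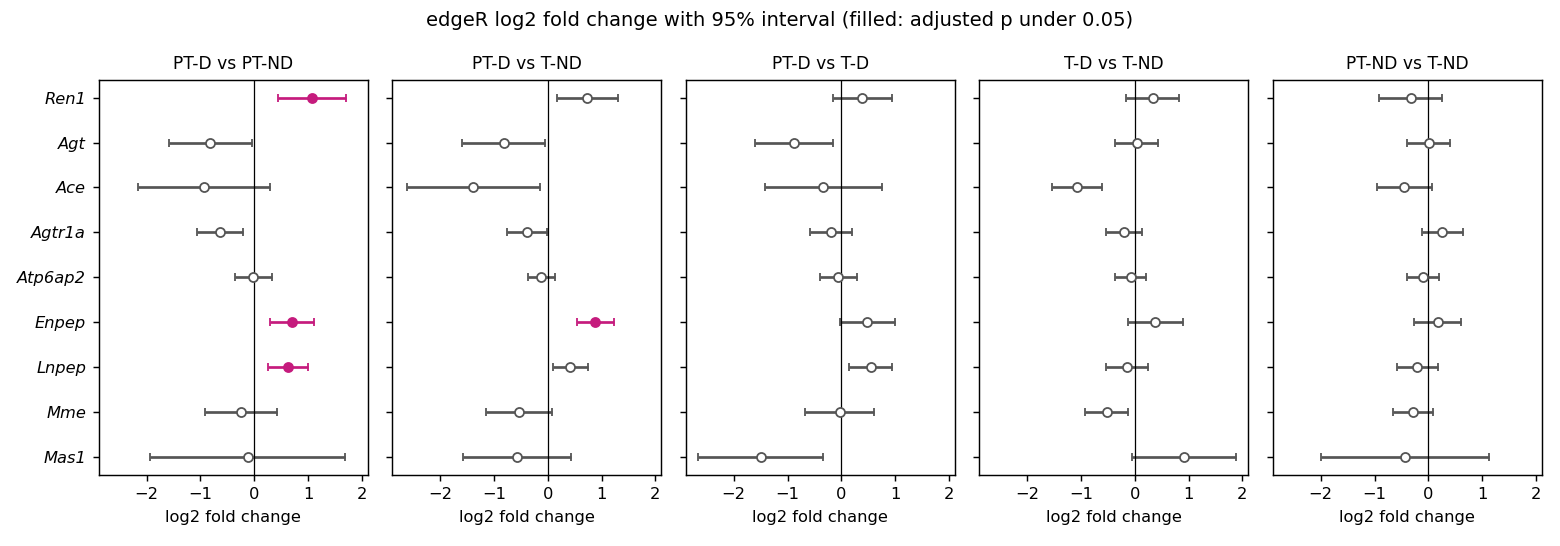
Log2 fold change of each member in the 5 comparisons between groups with its 95% interval from edgeR; filled points have an adjusted p under 0.05. Filled points are Ren1 (1.07), Enpep (0.71) and Lnpep (0.63) in PT-D vs PT-ND and Enpep (0.88) in PT-D vs T-ND, and the intervals of Ace and Mas1 are the widest in the comparisons with PT-D kidneys.

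Between PT-ND and T-ND kidneys neither edgeR nor DESeq2 called a member, and 0 of 9 had an unadjusted p under 0.05 in edgeR, beside 10.7% of all genes. Of all genes tested 0.0809% were called, and no member's groups were apart, beside 11% of all genes. Ace held 3121, 5368 and 3113 normalized counts in PT-ND kidneys (log2 fold change −0.45 against T-ND, 95% interval −0.96 to 0.07, and −0.76 without PT-ND replicate 2). The interval for Ren1 ran from −0.92 to 0.26 and that for Agtr1a from −0.12 to 0.64, so differences within those bounds are not excluded.

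The interaction asked whether the difference between diabetic and non-diabetic kidneys was itself different in preterm mice. No member was called, where 6.23% of genes were, and 1 had an unadjusted p under 0.05, beside 24.5% of all genes. That was Lnpep, with an interaction of 0.76 ± 0.26 on the log2 scale (SE, adjusted p = 0.0807; DESeq2 adjusted p = 0.0440), and of 0.28 (adjusted p = 0.339) with a correction for transcript length. For Ren1 the interaction was 0.72 ± 0.40 (SE, adjusted p = 0.287). Although Ren1 was called among preterm mice and not among term mice, the data did not show that the effect differed between them. Ace gave 0.13 ± 0.65 (SE, adjusted p = 0.933), and Enpep 0.31 ± 0.34 (SE, adjusted p = 0.615).

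Atp6ap2 was the steadiest member. Its 14 libraries lay between 2222 and 2968 normalized counts, a 1.34-fold range, and the group means were 2706 (T-ND), 2598 (T-D), 2534 (PT-ND) and 2504 (PT-D). Its log2 fold change lay between −0.12 and −0.02 in the 5 comparisons between groups, with a widest interval of −0.40 to 0.29 for PT-D against T-D. Mas1, by contrast, was counted rarely and unevenly. In PT-ND kidneys, replicates 1 and 2 held 3 and 5 normalized counts and replicate 3 held 25, more than 3 of the 4 T-D kidneys (23, 18, 21 and 53).

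Read counts depended on transcript length in a way that differed between libraries. Relative to the mean of the 14 libraries, the 173 genes with a longest transcript above 12000 bases had a median log2 deviation between 0.27 and 0.34 in PT-D kidneys, against −0.38 in T-D replicate 4 and −0.26 in PT-ND replicate 3. For the 318 genes with transcripts of up to 1000 bases the same medians were −0.16 to −0.55 in PT-D, 0.74 in T-D replicate 4 and 0.44 in PT-ND replicate 3. In PT-D against PT-ND, genes of 8001 to 12000 bases had a median log2 fold change of 0.38 and genes of up to 1000 bases of −0.53. The source of this trend was not tested.

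The members lie at both ends of that range. Lnpep has a longest transcript of 12052 bases, and the 612 genes of like length (within 25% of it) had a median log2 fold change of 0.39 in PT-D against PT-ND, with 72.1% of them below Lnpep. Ren1, with 1592 bases, went against its length class, whose 894 genes had a median of −0.44. With the trend of each library taken out of the fit, an analysis added after the trend had been seen, Ren1 gave 1.31 ± 0.32 (SE, adjusted p = 0.0332) and Enpep (4181 bases) 0.66 ± 0.18 (SE, adjusted p = 0.0435), and Lnpep was no longer called. Enpep also held against T-ND, at 0.85 ± 0.15 (SE, adjusted p = 0.0315). For Agt (6709 bases) the difference grew to −1.09 ± 0.34 (SE, adjusted p = 0.0734), and for Agtr1a (2623 bases) it shrank to −0.52 ± 0.20 (SE, adjusted p = 0.134). The correction takes out any real difference that runs with length, too.

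**Figure D4:**
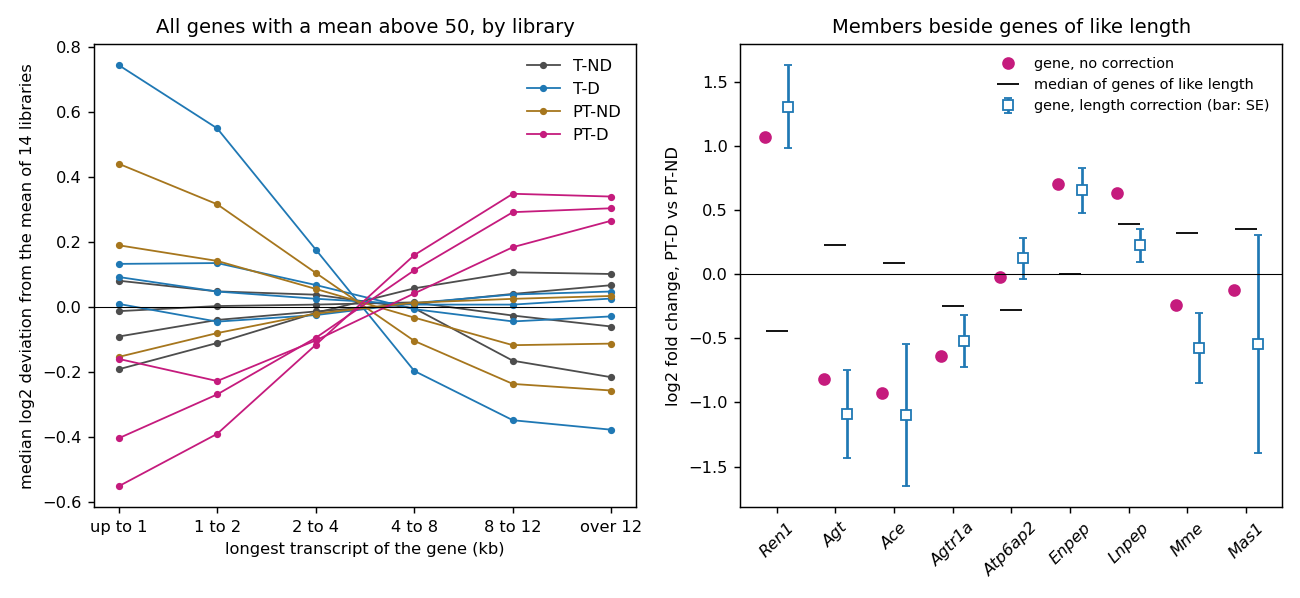
Left, median log2 deviation from the mean of the 14 libraries for genes in 6 classes of longest transcript length (kb), 1 line per library coloured by group. Right, log2 fold change of each member in PT-D vs PT-ND without correction (filled), the median of genes of like length (dash) and the value with a length correction (open square, bar SE); the dash of Lnpep lies at 0.39 and its corrected value at 0.23, while Ren1 stays above 1.

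Several members varied together over the 14 kidneys. Ace and Mme went most closely together (Pearson r = 0.92, Spearman rho = 0.83), with permutation p-values adjusted over 36 pairs of members of 0.00036 and 0.00738, where 1e-05 is the smallest unadjusted p that 100000 permutations can give. The relation held within groups (r = 0.91) and without the 2 libraries farthest from the median of Ace (r = 0.81). In TPM, the ratio of Ace to Mme averaged 2.00 (SD 0.286) in T-ND, 1.39 (SD 0.286) in T-D, 1.78 (SD 0.283) in PT-ND and 0.962 (SD 0.500) in PT-D kidneys, and the ranges of T-ND (1.68 to 2.34) and T-D (1.19 to 1.81) overlapped. Ren1 went with Enpep (r = 0.77, rho = 0.79, adjusted permutation p 0.0136 and 0.0109, r = 0.70 within groups) and against Agt (r = −0.75, rho = −0.71, adjusted permutation p 0.0110 and 0.0313, r = −0.78 within groups). Enpep and Lnpep also moved together (r = 0.76, rho = 0.75, r = 0.74 within groups). Ace and Agt gave r = 0.83 but rho = 0.43, and r fell to 0.32 without the 2 libraries farthest from the median of Ace, so that relation rests on those libraries, of which PT-D replicate 1 is one. The permutations moved libraries across the 4 groups, so a group difference shared by 2 genes also enters these p-values. For the r within groups no p was computed. All of these values share the libraries, their scaling and their length trend.

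Over 12148 genes with at least 50 normalized counts on average, those whose log2 levels followed Ace most closely over the 14 libraries were Slc23a1 (r = 0.99), Slc7a12 (r = 0.98) and Slc6a18 (r = 0.97), which encode transporters of ascorbate and amino acids. For Mme they were Elovl6 (r = 0.96), Atp11a (r = 0.93) and Slc3a1 (r = 0.93), and for Agt they were Serpina1f (r = 0.96), Hsd17b2 (r = 0.96) and Rpn2 (r = 0.96). Enpep was followed by Nf1 (r = 0.96), Nphs1 (r = 0.95), which encodes the slit diaphragm protein nephrin of podocytes, and C1qtnf1 (r = 0.95). The genes nearest to Lnpep were Tpr (r = 0.98), Atxn7 (r = 0.97) and Kif5b (r = 0.97). Ren1 had no gene as close, with Msantd2 (r = 0.90), Bdp1 (r = 0.90) and Adgrg3 (r = 0.89) nearest, and the nearest genes to Agtr1a were Taf9b (r = 0.91), Gulp1 (r = 0.90) and Cirbp (r = 0.89). These are descriptions over 14 libraries of 4 groups.

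Of 16 other genes of the pathway (further peptidases, proteases and receptors), 13 passed the filter on low counts. By edgeR none was called in any of the 6 comparisons, and 7 had an unadjusted p under 0.05 in PT-D against T-ND (24.3% of all genes did), where the list's median log2 fold change was 0.39 beside 0.03 over all genes. DESeq2 called 1 gene of the list in PT-D against T-ND, 1 in T-D against T-ND and 1 in the interaction, where it called 12.3%, 2.12% and 13.8% of the genes that passed the filter.

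Genes of the cells that make and control renin were examined as a list of 18, all of which passed the filter. In PT-D against PT-ND, 2 were called higher and 1 lower, beside 12.9% of all genes called, and the median log2 fold change was 0.22 beside 0.05 over all genes. DESeq2 called 4 of the list there (18.9% of all genes), 5 in PT-D against T-ND (12.3%) and 2 in PT-D against T-D (10.1%). It called 2 in T-D against T-ND (2.12%), 1 in PT-ND against T-ND (1.32%) and 3 in the interaction (13.8%). Gja5, the connexin 40 that couples renin cells with the endothelium, held 79.4, 90.3 and 85.6 normalized counts in PT-D kidneys and 19.8, 45.2 and 36.9 in PT-ND kidneys, from 19 to 120 counts in a library. In term mice it held 40.4, 84.0, 47.1 and 57.0 (T-ND) and 12.5, 20.7, 42.7 and 25.7 (T-D), so that PT-D kidneys overlapped only the highest T-ND kidney and lay above all T-D and PT-ND kidneys. The log2 fold change between the preterm groups was 1.32 ± 0.37 (SE, edgeR adjusted p = 0.0384), and the interaction was 2.47 ± 0.57 (SE, adjusted p = 0.0286), a test of the difference that also held with the length correction (adjusted p = 0.0373). The call between the preterm groups was lost without any 1 of the 6 kidneys except PT-D replicate 1 (1.04 to 1.57 in those fits), and that of the interaction without PT-D replicate 2 or 3 or PT-ND replicate 3 (2.43 to 2.54).

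Npr1, the receptor of atrial natriuretic peptide, which restrains renin release, held 569, 433 and 400 normalized counts in PT-D kidneys against 293, 271 and 186 in PT-ND kidneys (log2 fold change 0.90 ± 0.21, SE, edgeR adjusted p = 0.0227). It was also called against T-ND (0.83 ± 0.18, SE, adjusted p = 0.0445), and neither call held with the length correction (0.72 with adjusted p = 0.0579, and 0.70 with adjusted p = 0.0722). Without PT-D replicate 1 neither call held (0.73 with adjusted p = 0.0543, and 0.65 with adjusted p = 0.0964). The first was also lost without PT-ND replicate 2 or 3, and the second without any 1 of the 7 libraries except T-ND replicate 3. Endothelial markers summed to 6011 to 6964 normalized counts in PT-D against 3196 to 5600 in PT-ND kidneys. Mural cell markers summed to 3349 to 4515 against 1926 to 2480. The part of these sums in the Gja5 and Npr1 differences was not tested. Casr, the calcium-sensing receptor of the thick ascending limb and renin cells, was lower in PT-D (253, 172 and 96.8) than in PT-ND kidneys (460, 472 and 299), with a log2 fold change of −1.24 ± 0.32 (SE, adjusted p = 0.0283), a call that was lost without PT-D replicate 2 or 3 or PT-ND replicate 1 or 2 (−0.95 to −1.23). T-D kidneys (335, 174, 168 and 162) also lay below T-ND kidneys (556, 513, 352 and 345) in Casr, without passing the threshold in edgeR (adjusted p = 0.172). DESeq2 called Casr in that comparison. The 4 markers of the thick ascending limb and macula densa summed to between 17420 and 41800 normalized counts in PT-D and between 37770 and 53910 in PT-ND kidneys, and the part of that sum in the Casr difference was not tested. Umod (402799 counts over all libraries) and Slc12a1 (173419) made up nearly all of it. The macula densa genes Nos1 (278) and Ptgs2 (852) had little weight.

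Of 11 genes of angiotensin receptor handling and aldosterone response, 10 passed the filter, and 2 were called in PT-D against PT-ND, beside 12.9% of all genes. Rgs2, which shortens signalling from the angiotensin receptor, rose by 0.99 ± 0.22 on the log2 scale (SE, adjusted p = 0.0184), from 602, 664 and 448 to 1517, 1001 and 889 normalized counts. Term mice differed by about as much in Rgs2, with a log2 fold change of 0.93 ± 0.27 in T-D against T-ND (SE, edgeR adjusted p = 0.236). The ranges of these groups overlapped, and DESeq2 called the gene. Its interaction was 0.04 ± 0.40 (SE, edgeR adjusted p = 0.976). Agtrap, which promotes uptake of the type 1 receptor into the cell, fell, with 1387, 1792 and 1911 in PT-D against 2331, 2531 and 3354 in PT-ND kidneys (log2 fold change −0.69 ± 0.18, SE, adjusted p = 0.0335). Both held with the length correction, but the Rgs2 call was lost without PT-ND replicate 3 (0.85, adjusted p = 0.0721) and the Agtrap call without any 1 of the 6 kidneys except PT-ND replicate 1 (−0.52 to −0.78). In the comparisons of PT-D with T-ND and T-D, no gene of this list was called by edgeR, and 4 and 3 had an unadjusted p under 0.05, beside 24.3% and 22.3% of all genes. DESeq2 called 4 and 1 of them, beside 12.3% and 10.1% of the genes that passed the filter.

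**Figure D5:**
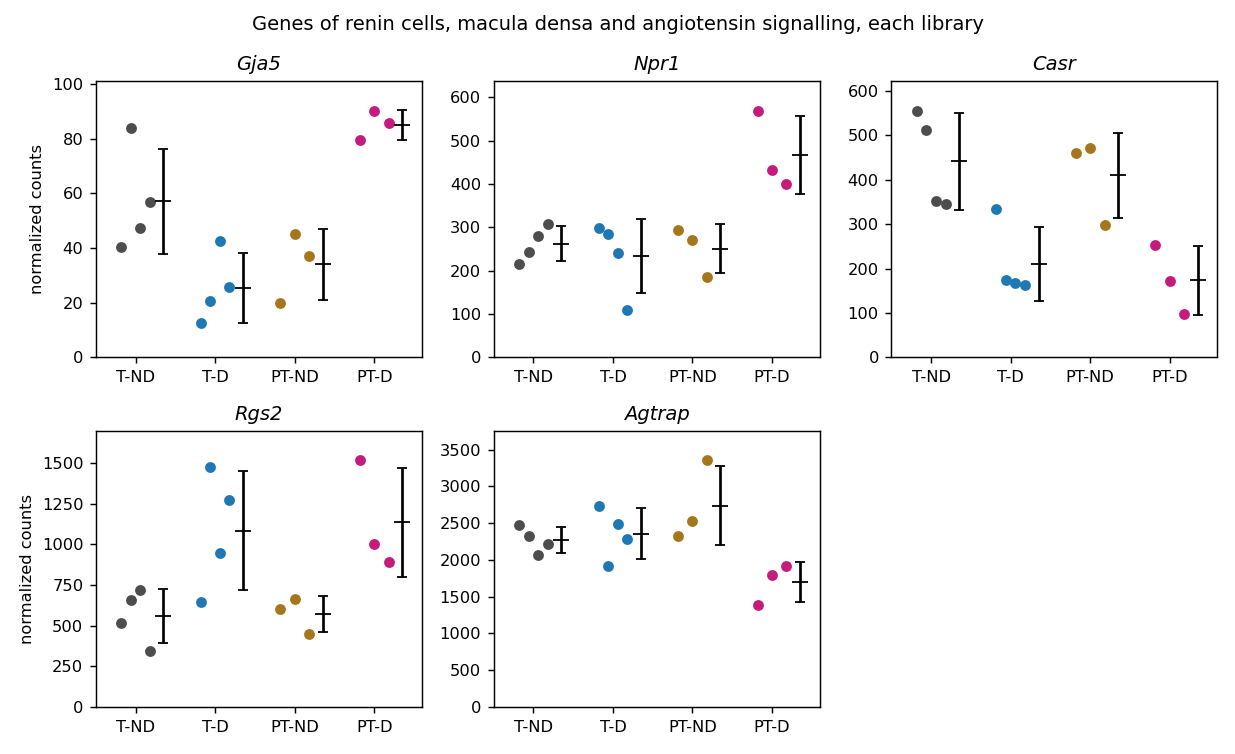
Normalized counts of 5 genes around renin and the angiotensin receptor in each library, drawn as for the members, with mean and SD beside each group and axes starting at 0. Gja5 lies between 79.4 and 90.3 in PT-D and between 12.5 and 42.7 in T-D kidneys, and Casr is lower in both diabetic groups than in the matching non-diabetic groups.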

How the data were processed

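Whole-kidney mRNA of 14 mice was sequenced, and the authors trimmed the reads, used STAR on GRCm39, and deposited for each gene the raw counts of reads with a single mapping place. The unstranded counts were used. Reads on more than 1 gene, 6.86% to 8.09% of unique reads, and on no gene, 2.39% to 5.42%, were not assigned to a gene by the authors and were left out. Symbols, positions and lengths are from GENCODE release 39, a later release than the authors', which 56236 of 56980 identifiers matched without version.

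Genes with a total above 10 counts entered edgeR 4.0.16 (R 4.3.3; TMM, quasi-likelihood test, two-sided, Benjamini-Hochberg over all genes tested), with each pair of groups fitted alone and the interaction on all 14 libraries. A gene was called at an adjusted p under 0.05. Normalized counts are counts scaled by TMM to the mean library size, and TPM use the union of exons. Intervals are 95%. DESeq2 1.42.0, other scalings and filters, a suffix covariate, a replicate block, a joint fit and leaving out each library were tried, and a length correction (per-library spline of log2 deviation on transcript length, as an offset) was added after seeing the data. The fits were tested on simulated data.

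The members and the gene lists were chosen with earlier results of these data known. All members were named, and other genes by list calls or by likeness (the 3 nearest by Pearson r). Promoter windows are from RefSeq, placed on GRCm39 by exact match. The values of 1 listed gene are not reported here.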

Additional observations from a re-analysis of the deposited data

Results flagged for a closer look

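Mas1 in T-D kidneys stood out because 1 of the 4 libraries, replicate 4, lay far from the others: its gap to the next library was 0.873 of the whole range of the group, above the 95% limit of Dixon's test for 4 values. It held 41 counts (52.8 normalized), where the other 3 held 18.3 to 22.6 normalized counts. T-D replicate 4 was also among the libraries least like the others and had the lowest TMM factor, 0.839, and the part of these in the Mas1 value was not tested. Of 18 combinations of gene and group checked, 1 was marked, and chance marks about 1 in 20.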

How the results depend on the processing

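Calls rested on few kidneys, and depth limited Mas1 (3 to 41 counts) most. In PT-D vs PT-ND the 3 called members became 6 with no filter on low counts and 6 with a replicate block (adding Ace, Agt and Agtr1a), 1 with the added demand of a log2 fold change beyond 1 (Ren1), and 0 in the libraries without the suffix a. DESeq2 called 4, adding Agtr1a, which was called in 6 of the 10 alternative settings that left out no single library. Leaving out 1 library gave 0 to 3. In PT-D vs T-ND the 1 called member (Enpep) became 0 with a replicate block, in the joint fit, without the suffixed libraries and with the fold demand; leaving out 1 library gave 0 to 2. From 0 the count became 1 in PT-D vs T-D by DESeq2 (Mas1) and without a filter (Agt), 1 in T-D vs T-ND by DESeq2 and without a filter (Ace) and without T-ND replicate 3 (range 0 to 1), and 1 in the interaction by DESeq2 and when T-D replicate 1 or PT-ND replicate 1 was left out (Lnpep, range 0 to 1). The replicate block changed no other call. Same-numbered kidneys did not vary together (median correlation of deviations −0.11 over 19 pairs, 2 above 0.1), so the numbers do not pair them.

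Direction changed in uncalled values. Among libraries without the suffix a, Ace (0.27) and Mme (0.24) in PT-D vs T-D, Mme in PT-D vs PT-ND (0.24) and Atp6ap2 in the interaction (−0.0278) turned sign. With a replicate block so did Mme in PT-D vs T-D (0.0388), Mas1 in PT-D vs PT-ND (0.33) and Agt in PT-ND vs T-ND (−0.0717). With the length correction so did Atp6ap2 in PT-D vs T-D (0.10) and PT-D vs PT-ND (0.12), and Ace (−0.0825) and Mme (−0.18) in the interaction. Agt in PT-ND vs T-ND turned without a filter (−0.0163) and with filterByExpr (−0.0037), and Atp6ap2 in the interaction with upper quartile scaling (−0.0068). In PT-D vs T-D, with 1 library left out at a time, the log2 fold change ran from −1.08 to 0.15 for Ace and −0.38 to 0.27 for Mme. In T-D vs T-ND, with 1 library left out at a time, the log2 fold change ran from −0.10 to 0.16 for Agt and −0.11 to 0.0027 for Atp6ap2. In PT-D vs PT-ND, with 1 library left out at a time, the log2 fold change ran from −0.61 to 0.0640 for Mme, −0.0997 to 0.0997 for Atp6ap2 and −0.59 to 1.37 for Mas1. In PT-ND vs T-ND, with 1 library left out at a time, the log2 fold change ran from −0.0899 to 0.12 for Agt and −0.0730 to 0.33 for Enpep. In the interaction, with 1 library left out at a time, the log2 fold change ran from −0.62 to 0.62 for Ace, −0.0843 to 0.57 for Mme, −0.0448 to 0.18 for Atp6ap2 and −1.50 to 0.43 for Mas1. The cause of these changes was not tested. Among the members the length correction ended 1 call, that of Lnpep in PT-D vs PT-ND. In the other lists it ended both calls of Npr1, in PT-D vs PT-ND and in PT-D vs T-ND.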
